A study of Homo sapiens with 4 samples.

Results

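Histone lysine methyltransferases and demethylases write and remove methyl groups on lysines of histone tails. They were chosen by name: protein-coding genes of the count table whose symbol begins with KMT, KDM or SETD followed by a digit or letter (1 KDM gene is not reported here), together with EZH1, EZH2, NSD1, NSD2, NSD3, DOT1L, SUV39H1, SUV39H2, EHMT1 and EHMT2 (SETDB1 and SETDB2 fall under the SETD names). The rule took 47 genes of the 62893 in the table and used no measured value. Of these, 44 passed the filter on low counts. KDM4E and KDM4F, testis-type relatives of KDM4D, had 0 counts in all 4 libraries, which allows at most 0.0139 to 0.0892 CPM (counts scaled to library size; 3 counts in the deepest and in the shallowest library, counting error only). KDM5D, the homolog of KDM5C on the Y chromosome, did not pass either. KMT2B was matched to no row by its symbol and was not analysed here.

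The 4 libraries hold poly(A) RNA from T24, an established line of human bladder carcinoma cells, treated with control siRNA (siControl, 2 libraries) or with siRNA against NSUN2 (siNSUN2, 2 libraries). NSUN2 is a methyltransferase that places 5-methylcytosine on RNA. All groups share the one cell line, and the sources used here do not give the siRNA sequences, the dose or the time after transfection. The question is which of these genes change in transcript level when NSUN2 is depleted. The labels do not tell whether each replicate was its own culture. The p-values therefore cover the scatter of these 4 libraries alone, and that scatter may be technical.

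Totals ran from 33633249 to 215936965 counts. NSUN2 itself stood at 281 and 284 CPM in the siControl libraries and at 29.6 and 30.1 CPM in the siNSUN2 libraries. Of the epithelial markers, KRT7, KRT8 and KRT18 were abundant (at least 108 CPM in every library), whereas CDH1, EPCAM, KRT5, KRT19, KRT20 and the uroplakin gene UPK2 reached at most 0.212 CPM and UPK3A had 0 counts. Of the other luminal markers, GATA3 reached at most 0.494 CPM and UPK1A at most 0.244 CPM. UPK1B was at 1.62 to 4.18 CPM, FOXA1 at 5.78 to 6.76 CPM and PPARG at 13.7 to 23.5 CPM. Mesenchymal markers were high and moved with the groups: VIM, FN1, ZEB1 and CDH2 summed to 1537 and 1564 CPM in siControl and to 2534 and 2521 CPM in siNSUN2. Their part in the results below was not tested. Leukocyte markers summed to at most 0.701 CPM, fibroblast markers to at most 3.56 CPM, and endothelial markers to 0.635 and 0.395 CPM in siControl and 2.37 and 10.6 CPM in siNSUN2, with PECAM1 at 0 counts throughout.

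Methylation of a histone lysine does not change its charge but creates a docking site for reader proteins. Methyl groups on lysines 4, 36 and 79 of histone H3 (written H3K4, H3K36 and H3K79) mark active promoters and transcribed genes, whereas those on H3K9, H3K27 and lysine 20 of H4 (H4K20) are linked to silencing and compaction. Most of the writers carry a SET domain and draw the methyl group from S-adenosylmethionine. Most of the erasers are JmjC oxygenases that need iron and 2-oxoglutarate, and the KDM1 enzymes instead use a flavin. Bladder carcinomas often carry mutations in KMT2D, KDM6A and other genes of this group.

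The H3K27 demethylase genes KDM6A and KDM6B and the H3K27 methyltransferase genes EZH1 and EZH2 were all higher. The rise of EZH2 was small and shrank to a log2 fold change of 0.07 without siControl replicate 1. The H3K9 methyltransferase genes SUV39H1 and SUV39H2 and the demethylase genes KDM1A and KDM1B were lower. Of the 7 genes listed as H3K4 methyltransferases, 5 were called higher and 1 lower. When trends with GC content and length were taken off each library, 3 were called higher and 1 lower. Those called higher were KMT2A, KMT2C and KMT2E, the last not called as fitted. SETD1A was the 1 called lower, and it was called higher as fitted. As fitted, the 2 largest changes were rises of KMT5C (2.64-fold) and KDM6B (2.34-fold), and the largest fall was that of SETD3 (log2 fold change −0.87). With these trends taken off the order differed, with KDM6A first (0.84), then KMT5C (0.74), EZH1 (0.70) and KDM6B (0.66). The largest falls were then those of SETD3 (−0.71) and SUV39H1 (−0.70), which were nearly equal. In all, 17 members were called higher and 10 lower, where "called" means an adjusted p under 0.05 in edgeR's quasi-likelihood test over all 16889 genes tested. Among all those genes 52.6% were called, 27.1% higher and 25.5% lower, and among the 12604 protein-coding ones 64.3%. The members' share of 61.4% is near these, so the number of calls says nothing particular about them. Their median log2 fold change (siNSUN2 over siControl) was 0.04, against 0.03 for all genes tested. In 37 of the 44 members tested both siNSUN2 libraries lay on the same side of both siControl libraries, as in 12595 of the 16889 genes tested. Such a separation was therefore common, and it is given below only as a description. The median size of the change, regardless of sign, was 0.24 for the members, 0.37 for protein-coding genes and 0.39 for all genes. The median level was 54.3 CPM for the members, 31.0 CPM for protein-coding genes and 15.2 CPM for all genes. No comparison was made with genes of like level. In bulk RNA, a change in the mix of cell states and a change in RNA per cell cannot be told apart.

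GC content went with the fold changes of the members as it did with those of all genes, and this bears on which rises can be read. Among the 22 members with a GC content of 50.5% or more, 11 were higher and 2 lower, where 43.1% of all genes above the members' median were higher and 12.1% lower. Among the 22 with 48.7% or less, 6 were higher and 8 lower, where 14.6% of all genes below that median were higher and 37.55% lower. Over the 44 members the correlation of GC content with log2 fold change was 0.50 (Pearson) and 0.40 (Spearman), against 0.34 and 0.41 over 16286 genes tested. Transcript length went with log2 fold change in the members, at 0.27 (Pearson, log length) and 0.36 (Spearman). Over all those genes it did not, at 0.0007 and −0.03. These points share the same 4 libraries, and no p is given. Trends on GC content and transcript length were then taken off each library. With them off, 13 members were called higher and 14 lower, against 23.5% and 23.4% of all genes. The split of 17 to 10 was thus not kept. The trends were drawn from these same 4 libraries, so any part of the response that goes with GC content or length was taken off too. Whether the trends are technical or part of the response was not tested. The value with the trends taken off is given below wherever taking them off moved a called value by over 1.5 times or ended or made a call.

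**Figure D1:**
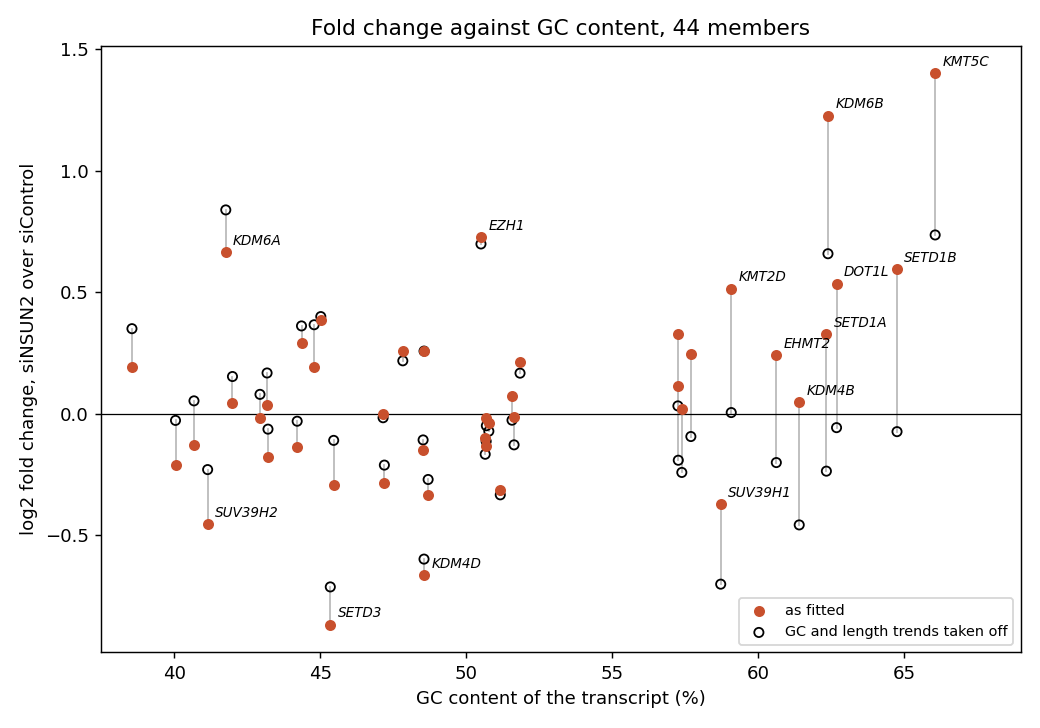
Log2 fold change (siNSUN2 over siControl) of the 44 members tested against the GC content of their transcript in percent; filled points are values as fitted, open points those with GC and length trends taken off, joined by a line for each gene. The open points lie well below the filled ones for genes above 57% GC, such as KMT2D (0.51 and 0.00), whereas EZH1 near 50.5% hardly moved.

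At the same threshold and null value, 14 members were called in one direction with and without every other change in the processing: EZH1, KDM5B, KDM6A, KDM6B, KMT2A, KMT2C, KMT5C and SETD5 higher, and KDM1A, KDM1B, KDM4C, SETD3, SUV39H1 and SUV39H2 lower. There were 14 such alternatives (13 for KDM4D and KDM8, which a minimum of 5 CPM removes), among them leaving out each library in turn. Of the 9 called members with a log2 fold change of at least 0.5 in size (1.41-fold), 7 were higher and 2 lower. That is 20.5% of the members tested, against 26.5% of all genes (15.0% higher and 11.6% lower). Tested against a fold of 1.2 instead of against no change, 8 members were called higher and 4 lower, where 32.2% of all genes were called, so this stricter test did not keep all of the 14.

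**Figure D2:**
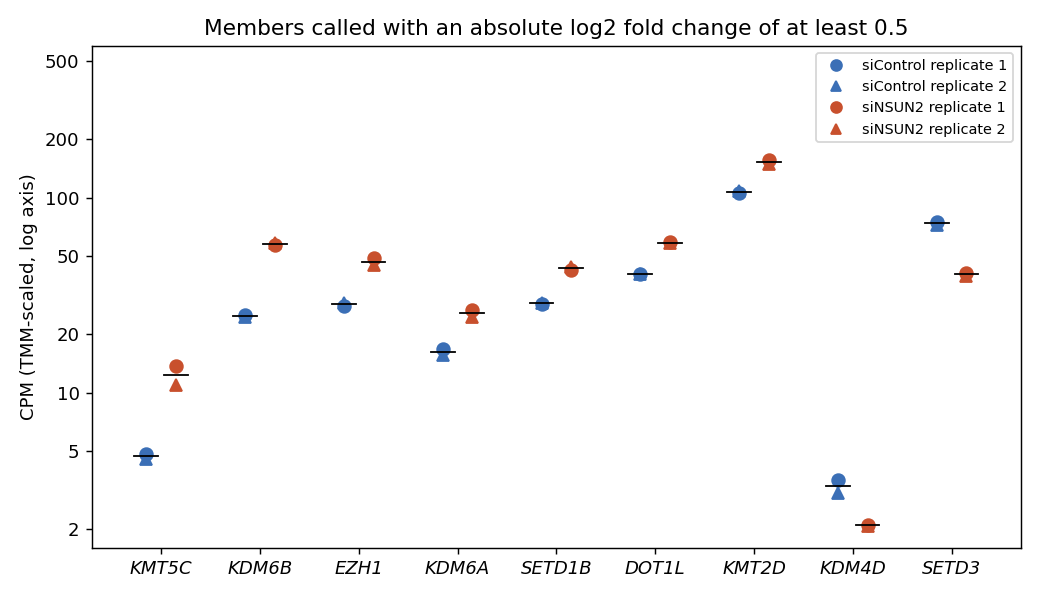
TMM-scaled CPM on a log axis in each of the 4 libraries for the 9 called members with an absolute log2 fold change of at least 0.5; blue is siControl, red siNSUN2, circles replicate 1, triangles replicate 2, black lines the group means. In all 9 genes both siNSUN2 libraries lie on the same side of both siControl libraries, with KMT5C rising from 4.70 to 12.3 CPM and SETD3 falling from 73.8 to 40.3 CPM. Such a separation was found in 12595 of the 16889 genes tested.

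Most of the H3K4 methyltransferases listed here, but not SETD7 and KMT2E, are catalytic subunits of COMPASS-type complexes. KMT2D, which primes enhancers by adding a single methyl group to H3K4, was measured at 105 and 108 CPM in siControl and at 156 and 148 CPM in siNSUN2. Both knockdown libraries were above both controls (log2 fold change 0.51, SE 0.044, adjusted p = 9.32e-06), but the value was 0.00 with GC and length trends taken off (adjusted p = 0.929). Its close relative KMT2C, which has the same role, stood at 88.8 and 89.8 CPM and then at 119 and 115 CPM. That rise of 0.39 (SE 0.041, adjusted p = 4.41e-05) was 0.40 with the trends taken off. KMT2C lies at 45.0% GC and KMT2D at 59.1%.

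SETD1B, 1 of 2 SET1 enzymes that trimethylate H3K4 at promoters, was at 28.5 and 28.95 CPM in siControl and at 42.7 and 44.2 CPM in siNSUN2 (log2 fold change 0.59, SE 0.049, adjusted p = 8.05e-06). The value was −0.07 with the trends taken off (adjusted p = 0.256). SETD1A, the other SET1 enzyme, had a log2 fold change of 0.33 that turned to −0.24 with the trends taken off, called in both cases (adjusted p = 2.42e-04 and 0.00178). Neither direction can therefore be read for the SET1 pair. KMT2A, the MLL gene of leukaemia translocations, rose by 0.26 from 168 and 173 CPM to 204 and 203 CPM, and by 0.17 without siControl replicate 1. SETD7, which adds a single methyl group to H3K4 and to other proteins, fell by 0.14, a call lost without siNSUN2 replicate 2 (−0.08, adjusted p = 0.147), without a low-count filter (adjusted p = 0.243) and with the trends taken off (−0.03). KMT2E, a SET protein without known methyltransferase activity of its own, was at 0.04 and passed the test only with the trends taken off (0.17, adjusted p = 0.0121).

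The H3K9 methyltransferases build heterochromatin. SUV39H2 and SUV39H1, which trimethylate H3K9 at pericentric repeats, both fell. SUV39H2 went from 36.9 and 34.5 CPM to 26.3 and 25.8 CPM (log2 fold change −0.45, SE 0.056, adjusted p = 1.10e-04; −0.23 with the trends taken off). SUV39H1 went from 32.5 and 33.7 CPM to 26.1 and 25.0 CPM (−0.37, SE 0.056, adjusted p = 3.77e-04; −0.70 with the trends taken off). In each gene both siNSUN2 libraries were below both controls. EHMT2 (G9a) and EHMT1 (GLP), which dimethylate H3K9 as a pair in euchromatin, leaned the other way: EHMT2 was called higher at 0.24, and EHMT1 at 0.11 just missed the threshold (adjusted p = 0.0501; called without siNSUN2 replicate 2, at 0.16, adjusted p = 0.0203, and with limma-voom, upper-quartile factors, a minimum of 5 CPM and the replicate block). EHMT2 was called lower at −0.20 (adjusted p = 0.0026) and EHMT1 at −0.19 (adjusted p = 0.0033) with the trends taken off, so no direction holds for the pair. The log2 fold changes of SETDB1, the enzyme that silences retroelements with TRIM28, and of its relative SETDB2 were −0.04 and −0.21 (adjusted p = 0.552 and 0.07). SETDB2 passed without siNSUN2 replicate 2 (−0.33, adjusted p = 0.0107), with the replicate number as a block (−0.21, adjusted p = 0.00608) and with limma-voom (−0.26).

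The H3K27 methyltransferases EZH2 and EZH1 are alternative catalytic subunits of Polycomb repressive complex 2 (PRC2). EZH1, the form typical of cells that do not divide, stood at 27.9 and 28.95 CPM in siControl and at 48.8 and 45.3 CPM in siNSUN2. The siNSUN2 libraries were above both controls (log2 fold change 0.73, SE 0.055, adjusted p = 4.45e-06; 0.70 with the trends taken off). EZH2, the form of proliferating cells, was at 128 and 138 CPM and then at 151 and 153 CPM. The rise of EZH2 (0.19, SE 0.047, adjusted p = 0.00696) was not called without siControl replicate 1 (0.07, adjusted p = 0.298) and was 0.37 with the trends taken off. Per length, in TPM (counts divided by transcript length and scaled to the same total in each library), EZH2 was 8.02 and 8.33 times the level of EZH1 in siControl and 5.41 and 5.91 times in siNSUN2. The ratios of the groups did not overlap, and EZH2 stayed the more abundant of the pair. These ratios come with no trend taken off. With the trends taken off, the rises of EZH1 (0.70) and EZH2 (0.37) lay nearer to each other than as fitted.

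Of the H3K36 methyltransferases, the 3 NSD genes, which place mono- and dimethyl marks, were not called and lay between −0.02 and 0.04. NSD2 was the most abundant member in CPM, at 357 and 358 CPM in siControl and at 364 and 343 CPM in siNSUN2. The siNSUN2 values enclosed the siControl values. With the trends taken off, NSD2 was called lower (−0.13) and NSD3 higher (0.15). SETD2, the main enzyme that trimethylates H3K36, was at 121 and 119 CPM and then at 108 and 104 CPM, called lower at −0.18 (SE 0.042, adjusted p = 0.00544). This call was lost with the trends taken off (−0.06, adjusted p = 0.164) and without a low-count filter (−0.16, adjusted p = 0.0657).

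DOT1L, the H3K79 methyltransferase, which has no SET domain, was tightly grouped at 40.5 and 40.7 CPM in siControl and at 59.1 and 58.6 CPM in siNSUN2. The fitted difference (log2 fold change 0.53, SE 0.043, adjusted p = 6.33e-06) became −0.06 with the trends taken off (adjusted p = 0.263). The GC content of DOT1L is 62.7%.

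The H4K20 methyltransferases act in sequence: KMT5A adds the first methyl group during mitosis, and KMT5B and KMT5C add the next ones. KMT5C was the member with the largest rise, from 4.82 and 4.57 CPM to 13.7 and 10.98 CPM (log2 fold change 1.40, SE 0.12, adjusted p = 1.21e-05). With the trends taken off it was 0.74 (adjusted p = 0.00187), and at 66.1% it has the highest GC content of all members. Leaving out single libraries gave 1.22 to 1.56. KMT5A rose by 0.21 (adjusted p = 0.00694), a call lost without siControl replicate 1 (0.09, adjusted p = 0.214) and without siNSUN2 replicate 2 (0.18, adjusted p = 0.0661). KMT5B had a log2 fold change of −0.13 and was not called (adjusted p = 0.0915; called at −0.20 without siControl replicate 2, adjusted p = 0.0185, at −0.13 with the replicate block, adjusted p = 0.0217, and at −0.15 with RLE factors, another scaling, adjusted p = 0.0496). Processed copies of KMT5A exist as separate rows. KMT5AP2 held at most 0.795 CPM and KMT5AP3 had 0 counts, so few reads were assigned to them.

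SETD3, which methylates a histidine of actin and not chiefly histones, had the largest fall. It was at 75.3 and 72.2 CPM in siControl and at 41.0 and 39.7 CPM in siNSUN2. Both knockdown libraries lay far below both controls (log2 fold change −0.87, SE 0.045, adjusted p = 5.13e-07; −0.71 with the trends taken off), and leaving out single libraries gave −0.92 to −0.84. SETD5, a SET-domain protein linked to intellectual disability whose own activity is debated, rose by 0.26 from 148 and 149 CPM to 173 and 182 CPM. SETD9 fell by 0.30 (adjusted p = 0.00778), a call lost with the trends taken off (−0.11) and with all libraries thinned to the shallowest (−0.22, adjusted p = 0.0607). SETD4 and SETD6, the latter an enzyme that methylates the NF-kB subunit RelA, had log2 fold changes of −0.15 and −0.13 and were not called (adjusted p = 0.0712 and 0.0588). SETD6 was called without siControl replicate 1 (−0.21, adjusted p = 0.0234), with RLE or upper-quartile factors, with limma-voom and with a minimum of 5 CPM, and SETD4 with RLE factors (−0.17, adjusted p = 0.045).

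**Figure D3:**
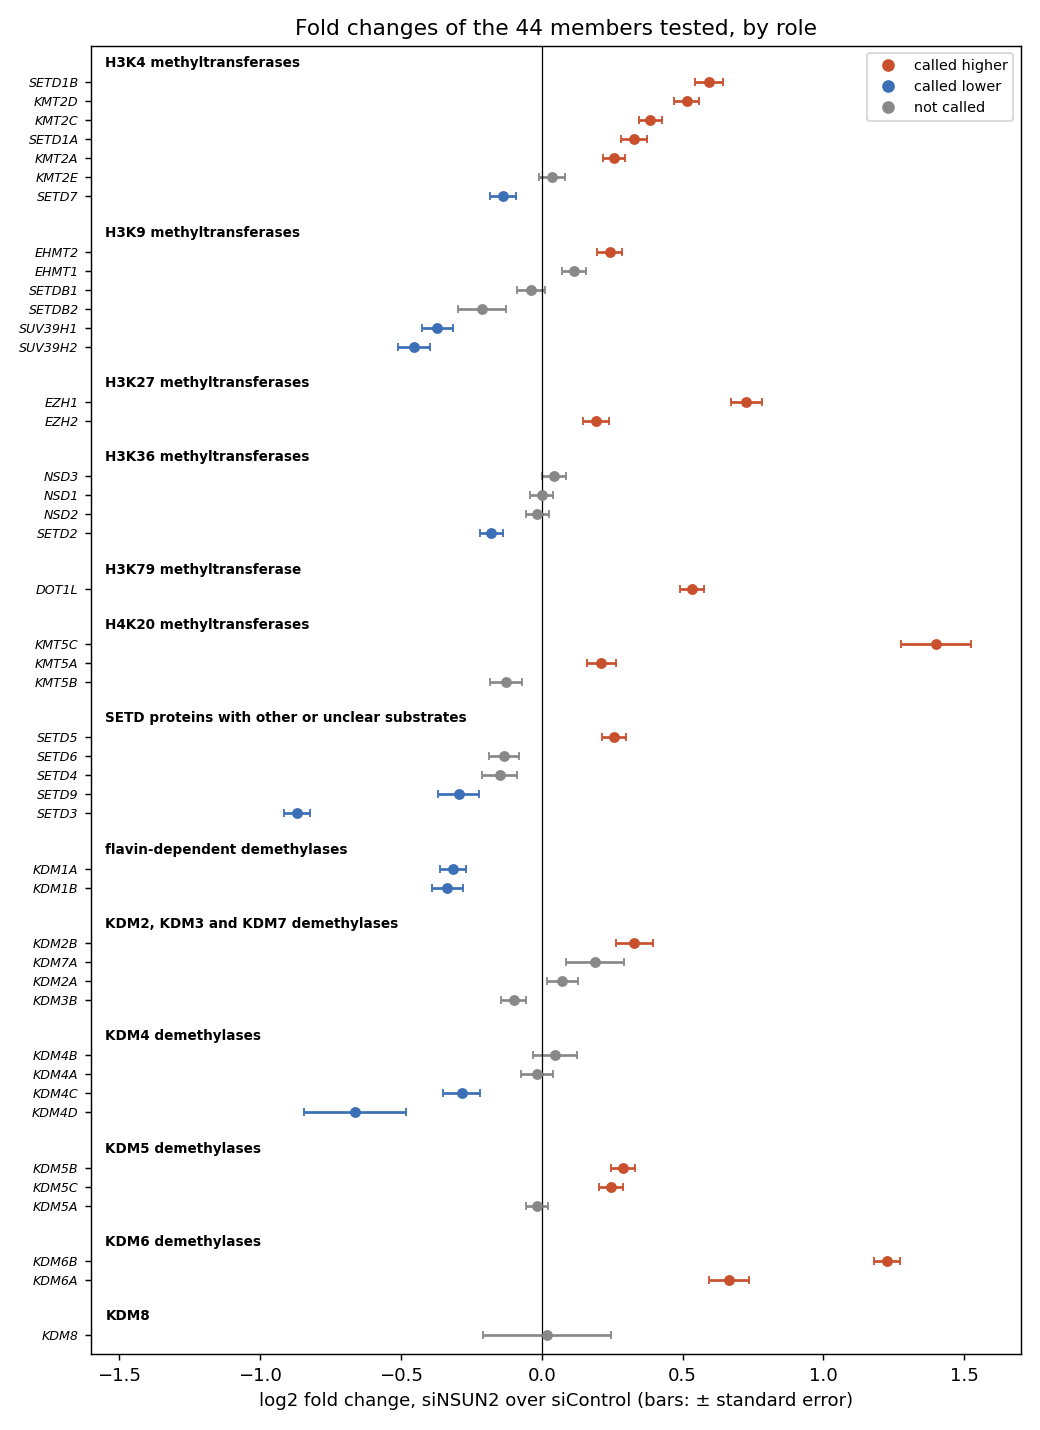
Log2 fold change (siNSUN2 over siControl) with its standard error for the 44 members tested, grouped by the residue they modify or their family; red is called higher, blue called lower, grey not called. KDM6A and KDM6B (0.67 and 1.23) stand to the right among the demethylases, KDM1A and KDM1B (−0.31 and −0.34) to the left.

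The KDM6 demethylases remove methyl groups from H3K27 and so oppose EZH1 and EZH2. KDM6B (JMJD3), an inducible gene of stress and inflammation, was at 24.9 and 24.5 CPM in siControl and at 57.0 and 58.6 CPM in siNSUN2. The log2 fold change was 1.23 (SE 0.047, adjusted p = 1.17e-07), and 0.66 with the trends taken off (adjusted p = 2.93e-05). KDM6A (UTX), the X-linked relative, went from 16.7 and 15.6 CPM to 26.6 and 24.3 CPM (0.67, SE 0.071, adjusted p = 4.12e-05; 0.84 with the trends taken off). In both genes the groups were apart. Per length, the pair summed to 16.2 and 15.2 TPM in siControl and to 31.4 and 32.0 TPM in siNSUN2, and the share of KDM6A in that sum was 45.3% and 43.9% and then 36.6% and 33.9%. These shares come with no trend taken off. With the trends taken off KDM6A rose by more than KDM6B, so no direction can be read for the share. The H3K27 methyltransferase pair summed to 130 and 137 TPM and then to 158 and 164 TPM. The sums of both pairs, with no trend taken off, were thus higher. EZH2 made up most of the methyltransferase sum, and its log2 fold change was 0.07 without siControl replicate 1. KDM7A, which also acts on H3K27, is not in the demethylase sum.

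The flavin-dependent demethylases remove mono- and dimethyl marks from H3K4. KDM1A (LSD1), the subunit of the CoREST corepressor, was at 151 and 154 CPM and fell to 127 and 118 CPM (log2 fold change −0.31, SE 0.046, adjusted p = 3.09e-04). KDM1B (LSD2) was at 96.1 and 90.2 CPM and fell to 77.1 and 70.3 CPM (−0.34, SE 0.056, adjusted p = 0.001). In both genes the siNSUN2 libraries lay below the controls, and the values were −0.33 and −0.27 with the trends taken off. Their transcripts summed to 199 and 192 TPM in siControl and to 161 and 154 TPM in siNSUN2.

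The KDM5 demethylases erase trimethylated H3K4. KDM5B, known for its expression in slow-cycling tumour cells, rose by 0.29, from 56.3 and 55.2 CPM to 68.5 and 67.7 CPM (SE 0.041, adjusted p = 2.83e-04; 0.36 with the trends taken off). KDM5C was called higher at 0.25, at 0.16 without siControl replicate 1, and lower at −0.09 (adjusted p = 0.0399) with the trends taken off. KDM5A was at 131 CPM in both siControl libraries and at 129 and 130 CPM in siNSUN2, a log2 fold change of −0.02 that was not called (adjusted p = 0.774).

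The KDM4 demethylases act on methylated H3K9, and some of them, not KDM4D, also on trimethylated H3K36. KDM4D was low, at 3.55 and 3.07 CPM in siControl and 2.09 and 2.07 CPM in siNSUN2 (log2 fold change −0.66, SE 0.18, adjusted p = 0.0122). That call rested on 71 counts in the shallowest library. It was lost without siControl replicate 1 (adjusted p = 0.0608), without siNSUN2 replicate 1 (adjusted p = 0.0561), without siNSUN2 replicate 2 (adjusted p = 0.0618) and with all libraries thinned to the shallowest (adjusted p = 0.084). KDM4C fell by 0.28, from 17.4 and 17.6 CPM to 14.1 and 14.6 CPM (SE 0.066, adjusted p = 0.00513). KDM4A and KDM4B had log2 fold changes of −0.02 and 0.05 and were not called. KDM4B was called at −0.46 (adjusted p = 0.00145) with the trends taken off.

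Of the remaining JmjC enzymes, KDM2B, which brings a Polycomb complex to CpG islands, was called higher at 0.33, a call lost with the trends taken off (0.03, adjusted p = 0.753). KDM2A, its H3K36-demethylating relative, was at 0.07 and was called only without siNSUN2 replicate 2 (0.15, adjusted p = 0.0268). KDM3B, an H3K9 demethylase, had a log2 fold change of −0.10 and was not called (adjusted p = 0.0853), but passed the test under 10 of 14 alternatives. Among them it was at −0.17 (adjusted p = 0.00823) with the trends taken off, −0.14 (adjusted p = 0.0243) without siControl replicate 1, −0.14 (adjusted p = 0.0378) without siControl replicate 2 and −0.14 (adjusted p = 0.0352) without siNSUN2 replicate 1. KDM7A, which acts on H3K9 and H3K27, was at 6.61 and 6.66 CPM and then at 7.58 and 7.56 CPM (0.19, adjusted p = 0.158; 0.35 and called with the trends taken off). KDM8 was measured at 1.43 to 1.54 CPM in the 4 libraries, with a log2 fold change of 0.02 (SE 0.23).

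Levels can be compared between genes per length only. In siControl the order of the 44 members in TPM was led by EZH2 (119 ± 4.31, SD, n = 2), KDM1A (119 ± 0.273) and NSD2 (108 ± 1.74). EZH2 and KDM1A did not differ beyond their spread there. In siNSUN2 the order was EZH2 (137 ± 4.83), NSD2 (108 ± 1.78) and KDM1A (96.2 ± 2.19), with no overlap between neighbours. SETD3 went from place 6 to place 15, from 60.6 ± 2.87 to 33.4 ± 0.0866 TPM. At the low end stood KDM8 (1.43 TPM in siControl), KDM7A (1.69 TPM) and KDM4D (2.63 TPM). The lengths come from 1 transcript per gene, chosen as the principal coding form in GENCODE release 29, so TPM values depend on that choice.

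**Figure D4:**
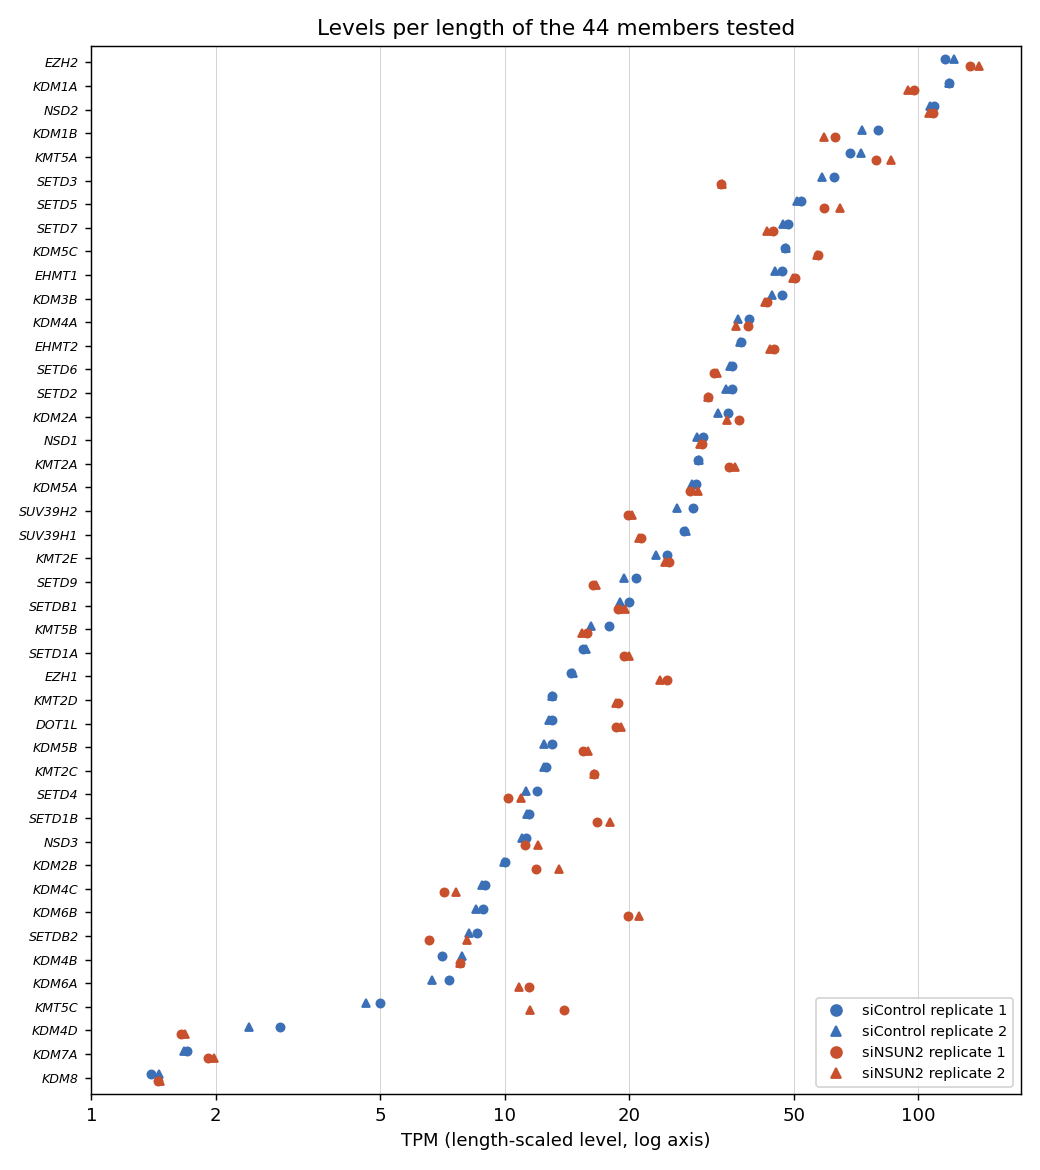
Length-scaled level in TPM on a log axis of the 44 members tested, ordered by their siControl mean; blue is siControl, red siNSUN2, circles replicate 1, triangles replicate 2. Levels span from 1.43 TPM (KDM8) to 119 TPM (EZH2) in siControl, and the gaps between colours are widest for KMT5C, KDM6B and SETD3.

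A 6-base word, ACCCTA, was examined because earlier results of these data tie it, when in the 3′ UTR, to lower fold changes. Among the 44 members, 9 (20.5%) hold it in their longest annotated 3′ UTR on the transcript strand, against 21.4% of 12439 coding genes searched. Of the 9, 3 were called higher (DOT1L and KMT2A among them), 1 lower (SUV39H1) and 5 were not called (SETDB2, SETD4, SETD6, KDM5A and NSD2), where 22.9% of all coding genes with the word were higher and 44.7% lower. The median log2 fold change of the 9 was −0.02. The 35 members without it had 14 higher and 9 lower, with a median of 0.05, where 36.6% of all coding genes without the word were higher and 27.05% lower. Over all coding genes, the 2657 with the word had a median of −0.16 and the 9782 without it 0.09. These were −0.12 and 0.04 with the trends taken off. The genes with the word also have longer 3′ UTRs (median 2870 bases) than those without it (1111 bases). No comparison was made at like 3′ UTR length, so the part of the word itself was not tested. The 5 members in which an A precedes the word (AACCCTA) had a median of 0.26, against −0.30 in the 969 coding genes of that kind. With the trends taken off the medians were −0.06 and −0.22, so the contrast in sign was seen only as fitted. Of these sites, 4 are shown from the GENCODE release 29 transcripts with 12 bases on each side, since genes with the same word were called in different directions as fitted; the capitals mark the word.
SUV39H1: gtacacccctcaACCCTAtgcagcctggag
SETD6: ctcagggaataaACCCTAagacatcactca
KMT2A: cactctctaccaACCCTAaaccctgaggac
DOT1L: gaattgataggaACCCTAaaaactaggata
The sites of SETD6, KMT2A and DOT1L hold the longer form AACCCTAA. SETD3, the member with the largest fall, has no ACCCTA in its 3′ UTR, and neither do SUV39H2, KDM1A, KDM1B and KDM4C. A match of letters is a description and shows no binding.

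The partners of these enzymes were described from lists of complex subunits, by counts. Beside the counts of every list of partners and relatives below stand 52.6% of all genes tested called, 27.1% higher and 25.5% lower. Among protein-coding genes 64.3% were called. With the trends taken off, 23.5% of all genes were called higher and 23.4% lower. The lists are short, and their counts were not tested against these shares. Of the 9 measured PRC2 subunits, 3 rose, 5 fell and 1 did not pass. The rises were those of PHF1 (log2 fold change 1.13, from 29.3 ± 1.07 to 64.5 ± 0.11 CPM, SD, n = 2), PHF19 (0.75) and JARID2 (0.43), accessory proteins that direct PRC2 to chromatin. The core subunit EED fell by 0.38, from 51.7 to 39.7 CPM, and the core subunit SUZ12 was at 0.11 and not called (adjusted p = 0.095; 0.34 and called with the trends taken off). With the trends taken off, 4 subunits were called higher and 1 lower, so most falls of this list were called only as fitted. PHF1 was at 0.76, PHF19 at 0.42 and EED at −0.22.

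Of 12 measured COMPASS and MLL complex subunits, 2 rose, 3 fell and 7 did not pass, and 1 was called higher and 4 lower with the trends taken off. HCFC1, a scaffold of the complexes, was called higher at 0.52 and was at −0.04 with the trends taken off. PSIP1, which tethers KMT2A to chromatin, fell by 0.46 (−0.24 with the trends taken off), and CXXC1, the CpG-binding subunit of SET1 complexes, was called higher at 0.26 (and lower, at −0.13, with them taken off). The shared core subunits WDR5 and ASH2L were at −0.01 and 0.06 and not called, and RBBP5, the third one, was called lower at −0.22. With the trends taken off, WDR5 was called lower at −0.19 and RBBP5 was at −0.06, not called.

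Around KDM1A, 2 of 11 LSD1-CoREST subunits rose, 4 fell and 5 did not pass. The counts called higher and lower were the same with the trends taken off, but in part for other genes. HMG20B was called higher at 0.51 (−0.02 with the trends taken off), and ZMYM3 fell by 0.36 (−0.56 with them taken off). RCOR1, the CoREST scaffold itself, fell by 0.20 (−0.09 and not called with them taken off), and HDAC2 fell by 0.26 (−0.11 with them taken off).

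All 11 measured partners and readers of H3K9 methylation were called, 3 higher and 8 lower, and 1 higher and 7 lower with the trends taken off. Among all genes tested 27.1% were called higher and 25.5% lower, and among coding genes 64.3% were called. The HP1 genes, whose proteins bind methylated H3K9, were divided: CBX3 fell by 0.78, from 343 to 199 CPM, CBX1 fell by 0.38, and CBX5 rose by 0.48, from 163 to 227 CPM. The trends taken off left CBX3 at −0.52, CBX1 at −0.27 and CBX5 at 0.58. WIZ, a partner of EHMT1 and EHMT2, was called higher at 0.61 (−0.06 with them taken off). Of the 5 measured DOT1L partners, 2 rose, 1 fell and 2 did not pass. With the trends taken off 2 were also called higher and 1 lower, in part other genes. MLLT3 (AF9) was at −0.80, MLLT1 (ENL) at 0.46 (−0.13 and not called with the trends taken off) and AFF4 at 0.14 (0.27 with them taken off).

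Relatives outside the naming rule gave 2 rises and 5 falls among 8 measured lysine methyltransferases (1 and 4 with the trends taken off), led by MECOM (−1.29, from 19.7 to 8.04 CPM), SMYD3 (−0.39) and SMYD2 (−0.35, and −0.19 with the trends taken off). Among 11 measured JmjC proteins outside the rule, 4 rose and 2 fell (4 and 3 with the trends taken off), led by the demethylase gene PHF2 (0.65, and 0.37 with the trends taken off), RIOX2 (−0.74) and JMJD4 (0.73, and 0.25 with them taken off). Of 8 measured protein arginine methyltransferases, 1 rose, 2 fell and 5 did not pass, whereas 1 was called higher and 5 lower with the trends taken off. PRMT3 fell by 0.63 (−0.40 with the trends taken off), PRMT5 fell by 0.25 and PRMT2 rose by 0.33 (0.13 with them taken off).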

How the data were processed

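The deposited table gives, for each Ensembl gene, the raw count in every one of the 4 libraries. Per the submitters' processing notes, HISAT2, HTSeq and hg19 were used. The sources used here do not give versions, annotation or strand setting, so reads of overlapping, antisense or near-identical genes may be assigned to either. Symbols were found for 51537 of 62893 IDs. GENCODE release 29 (GRCh38) served only for types, lengths, GC content and 3′ UTRs (at least 50 bases), through gene IDs. No coordinates are given.

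The whole table was fitted with edgeR 4.0.16 in R 4.3.3 (filterByExpr, TMM factors, robust quasi-likelihood F-test, two-sided, Benjamini-Hochberg over 16889 genes, threshold 0.05). The test was checked on simulated counts that held no GC trend and far fewer changed genes than were called here. That check therefore does not cover the GC trend of these data. CPM values use TMM-scaled library sizes, and standard errors come from the F statistic. Length and GC content were known for 96.4% of genes tested; loess trends on both were taken off as offsets. Within each group the 2 libraries were further apart than counting noise allows (chi-square over its degrees of freedom, 18.8 for siControl and 12.4 for siNSUN2). Groups of 2 allow no permutation test of single values.

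The members and lists were chosen with earlier results of these data known. Every member is named; CPM per library is given for called members with a log2 fold change of at least 0.5 in size and for some others, chosen after their values were seen. From each partner list, up to 3 called genes with the smallest p follow the rule (1 such gene and 1 site are not reported here); JARID2, SUZ12, WDR5, ASH2L, RBBP5, RCOR1, HDAC2 and CBX1 were added after their values were seen.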

Additional observations from a re-analysis of the deposited data

How the results depend on the processing

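Against a fold of 1.2, 8 members were called higher and 4 lower, with 2913 and 2529 of all genes. The counts of members and of all genes stayed within 1.5 times under the other alternatives (DESeq2 1.42.0, limma-voom 3.58.1, other scaling, other filters, thinning, the 50 most abundant genes left out, an adjusted p of 0.01, GC and length trends). The members' median of 0.04 was 0.021 with DESeq2, 0.021 with RLE factors, 0.029 with upper-quartile factors, 0.024 with limma-voom, 0.058 without a low-count filter and −0.054 with the trends taken off; leaving out single libraries gave −0.041 to 0.073, so its sign is not settled. Leaving out single libraries gave 15 to 18 members higher and 9 to 12 lower. With the trends taken off, 11 members changed sign. Of these, 4 were called neither way (KDM2A, KDM5A, KDM8 and KMT5B) and 7 were called with or without the trends: DOT1L to −0.058, EHMT1 to −0.19, EHMT2 to −0.20, KDM4B to −0.46, KDM5C to −0.094, SETD1A to −0.24 and SETD1B to −0.074. The replicate number as a block gave 18 members higher and 13 lower; deviations of same-numbered libraries correlated at 0.088 over 9661 genes, so the numbers were not taken as pairs. Under the block, KDM3B, KMT5B, EHMT1 and SETDB2 were also called.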
